A study of Mus musculus with 6 samples.

Results

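The amino acid transporter families described here are the mouse genes whose symbols begin with Slc1a, Slc3a, Slc7a, Slc36a, Slc38a or Slc43a, and 44 of the 22180 genes measured on the arrays met that rule. Of these, 42 are transporter genes or their chaperone subunits. The other 2, Slc7a6os and Slc36a1os, are genes on the opposite strand that carry the prefix only through their names. The RNA came from CD8+ T cells of C57BL/6 mice, purified with a magnetic kit from peripheral lymph nodes and spleen without further treatment. One group of 3 arrays is labelled wild type and the other group of 3 arrays Dot1l knockout, from a cross of Dot1l flox/flox mice with CD4-Cre mice, in which Cre recombinase is made by T cells and their thymic precursors. The labels give neither the age of the mice nor whether wild type animals carried the floxed allele or Cre. They also do not tie arrays to animals, so the replicate spread behind each p-value may be technical. CD4-Cre acts before the CD4 and CD8 lineages part, so in such mice T cells other than CD8+ cells carry the deletion too.

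Amino acids cross the plasma membrane and the lysosomal membrane through these carriers. A naive T cell takes up little, and a stimulated one raises uptake of leucine, glutamine and methionine, in part through Slc7a5, its heavy chain Slc3a2 and Slc1a5. Methionine is the precursor of S-adenosylmethionine, the methyl donor that Dot1l and the other histone methyltransferases use. The comparison asks which of these carriers differ in transcript level when the cells lack Dot1l.

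Values are deposited log2 expression values of 1 probe set per gene, so a difference of 1 is a doubling. Probe sets differ in brightness for reasons other than transcript abundance, and levels are therefore compared between arrays for 1 gene and not between genes. A level of 3.83 served as a guide to background: it is the 95th percentile of the levels of 1394 odorant and pheromone receptor genes, whose known sites of use lie outside T cells. Over the 6 arrays, 20 members had a mean above that guide and 24 did not. A gene passed at a Benjamini-Hochberg adjusted p under 0.05 in limma over all 22180 genes.

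Dot1l itself read 7.46, 6.96 and 7.18 in wild type and 7.31, 7.26 and 7.33 in knockout arrays (0.10, SE 0.13, adjusted p = 0.765). Which exon the floxed allele removes is unstated, and probes outside it check nothing, so the groups are taken as labelled. The T cell genes Cd3e (11.83 and 11.74 in wild type and knockout), Cd3g, Cd8a (11.12 and 10.95) and Cd8b1 were far above the guide in both groups, and Cd5 was the 1 of 8 measured T cell markers to pass (-1.01). Of the 8 markers 6 differed by less than 0. Their summed level (log2 of the sum of the linear values) was 13.72 to 13.82 in wild type and 13.65 to 13.69 in knockout arrays, lower without overlap. Markers of other cells moved in the same arrays: 3 of 11 B cell genes rose and Ighm fell (6 of the 11 lay below the guide), with a summed level of 11.06 to 11.26 in wild type and 10.63 to 10.76 in knockout arrays. That sum is carried by Ighm (10.98 and 10.38 in wild type and knockout), and without it the other 10 B cell genes, of which 7 differed by more than 0, summed to 7.71 to 7.95 in wild type and 8.22 to 8.44 in knockout arrays. Of 6 NK cell genes 2 rose (7.02 to 7.32 against 7.45 to 7.64). All 6 differed by more than 0 (median 0.433), and 4 had an unadjusted p under 0.05 in limma. Of CD4 helper and regulatory T cell genes 1 of 6 rose and 1 fell (summed level 7.01 to 7.13 against 6.98 to 7.04), of monocyte, macrophage and neutrophil genes 1 of 11 rose and 1 fell (7.42 to 7.61 against 7.43 to 7.49), and of dendritic cell genes 1 of 7 rose (8.24 to 8.67 against 8.23 to 8.36). None of 7 erythroid and platelet genes (6.45 to 6.65 against 6.29 to 6.58) or 9 stromal and endothelial genes (9.36 to 9.38 against 9.16 to 9.26) passed in limma, with 0 and 1 at an unadjusted p under 0.05. The dendritic sum is carried mostly by Cd209a (8.10 and 7.73 in wild type and knockout), whereas the dendritic gene that rose was Itgax (1.14). Pecam1 (9.14 and 8.93) likewise carries most of the stromal and endothelial sum. The part of other cell types in the transporter results was not tested, and in bulk RNA fewer cells of a type and less RNA per cell cannot be told apart. Wild type arrays were the more scattered for 24 of the 44 members and for 62.3% of all genes, and wild type replicate 1 was the lowest wild type array for 22 members and replicate 3 the highest for 23.

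A few members rose, and the median of the set lay close to that of all genes. In knockout arrays 4 of the 44 members passed as higher (Slc43a3, Slc7a8, Slc43a1 and Slc7a3) and 0 as lower. Of all genes tested, 5.50% passed, 4.30% as higher and 1.20% as lower, so the members' share of 9.09% rests on very few genes. At an unadjusted p under 0.05, 5 members were higher and 5 lower. Of all genes 11.2% were higher and 6.83% lower at that level. The members' higher count is thus at the background, and their lower count, of few genes, is above it. The median difference over the 44 members, knockout minus wild type, was -0.005, beside -0.012 over all genes. Differences ran from -0.61 to 1.24, with 19 members above 0 and 25 below. The 3 knockout values and the 3 wild type values did not overlap for 17 members (38.6%), 8 with knockout higher and 9 with it lower. Of all genes 23.5% did not overlap, 3042 of the 22180 with knockout higher and 2170 with it lower. A further quantile normalization changed the calls to 3 higher and 1 lower, since Slc43a1 no longer passed and Slc38a9 did; over all genes it moved the share of higher calls from 78.2% to 57.1%, and median centring moved it to 68.8%. Without knockout replicate 1, 2 or 3 the members passing as higher numbered 1, 2 and 2, and Slc43a3 was the only one to pass whichever of the 6 arrays was omitted. Among genes above the background guide 2 of 20 members passed (10%), beside 9.95% of all such genes. Probe sets without a gene name read higher in the same knockout arrays, and with their median in each array as a covariate, added after seeing the data, Slc43a3 was the 1 member to pass (1.68, adjusted p = 0.029).

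**Figure D1:**
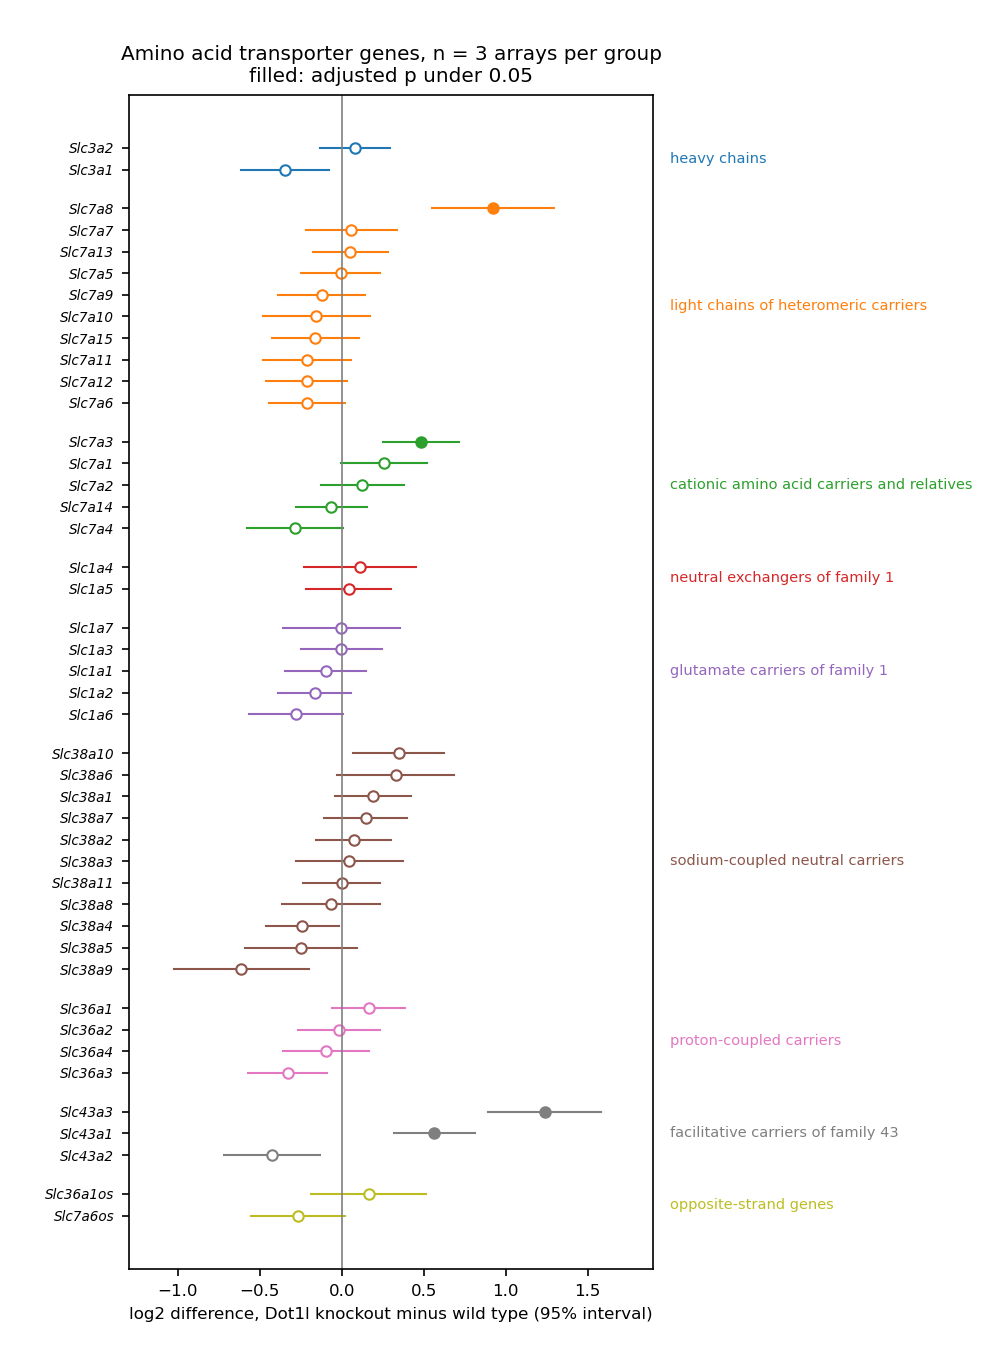
Log2 difference (knockout minus wild type, x axis) of each of the 44 members, grouped by role, with bars for the 95% interval from limma and filled circles for an adjusted p under 0.05. The 4 filled circles lie to the right of 0, between 0.48 and 1.24, and most other intervals cross 0.

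Of the 3 Slc43a genes 2 rose and 1 did not pass, and the groups did not overlap for any of them. Slc43a1 (LAT3) and Slc43a2 (LAT4) let branched-chain amino acids, methionine and phenylalanine pass by facilitated diffusion, without sodium or an exchange partner, whereas Slc43a3 is known as a carrier of purine nucleobases. In the wild type arrays Slc43a3 read 4.33, 4.94 and 4.74, and in the knockout arrays 5.87, 5.86 and 5.99. Every knockout array was above every wild type array, and the wild type arrays were the more scattered. Slc43a3 thus rose 2.36-fold, from 4.67 ± 0.31 to 5.91 ± 0.07 (SD, n = 3 arrays per group, as for all values that follow), a log2 difference of 1.24 (SE 0.15, limma adjusted p = 0.00163). Its difference was 1.07 without wild type replicate 1, the lowest array, and lay between 1.07 and 1.37 whichever array was left out (adjusted p between 0.00137 and 0.0119).

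Slc43a1 read 5.27, 5.22 and 5.51 in wild type arrays and 5.94, 5.86 and 5.89 in knockout arrays. Again the groups did not overlap, and the 3 knockout values lay within a narrow band. It rose 1.48-fold, from 5.33 ± 0.15 to 5.89 ± 0.04 (0.56, SE 0.11, adjusted p = 0.0175). The size varied little when arrays were left out (0.51 to 0.65), but its call ended when wild type replicate 1 was omitted (adjusted p = 0.0515) and when knockout replicate 1, 2 or 3 was (0.0747, 0.0611 and 0.0739). After another quantile normalization its difference was 0.37 (adjusted p = 0.101).

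Slc43a2 lay on the other side of 0. Its wild type values were 6.82, 7.21 and 7.07 and its knockout values 6.45, 6.69 and 6.69, so that here each knockout array was below each wild type array. The means were 7.04 ± 0.19 and 6.61 ± 0.14, a difference of -0.43 (SE 0.13, 95% interval -0.72 to -0.14) that did not pass (adjusted p = 0.106). Leaving out single arrays gave -0.53 to -0.34 and no adjusted p under 0.0533. Both genes of this family that transport neutral amino acids by the same mechanism were thus measured on opposite sides of 0; whether their differences differ from each other was not tested.

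**Figure D2:**
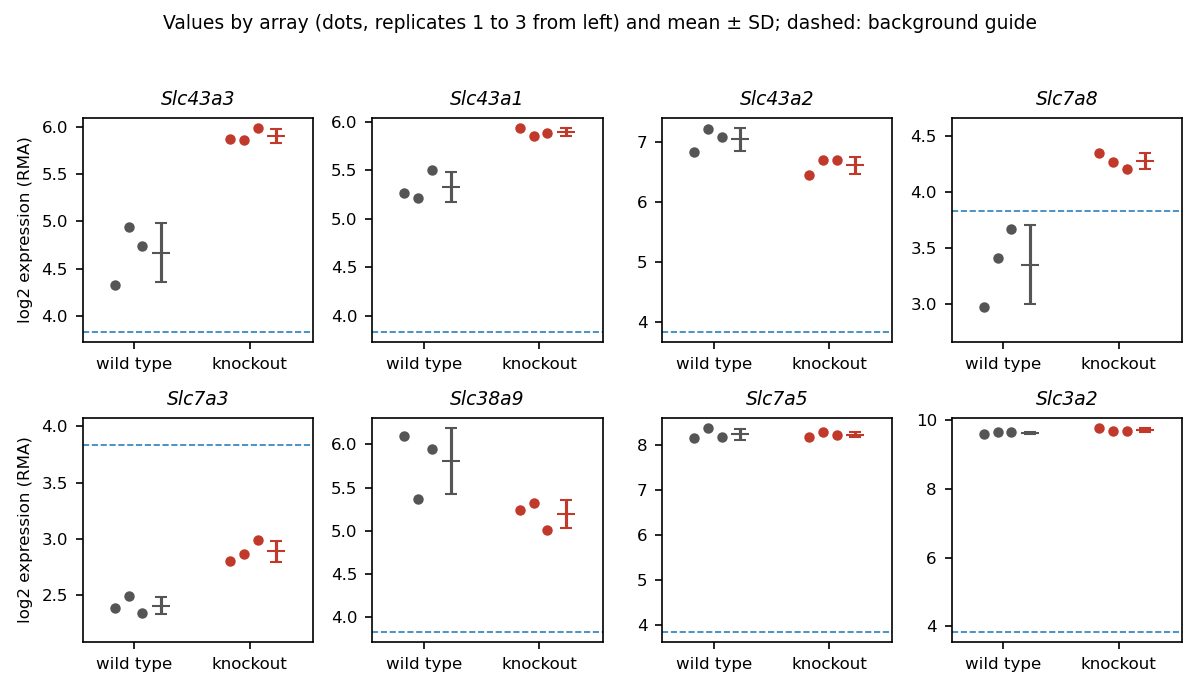
Log2 expression (y axis) of 8 members in each array, with 3 wild type arrays in grey, 3 knockout arrays in red, mean ± SD beside them and the background guide of 3.83 as a dashed line. Slc43a3, Slc43a1, Slc7a8 and Slc7a3 are higher in all 3 knockout arrays, Slc43a2 and Slc38a9 are lower in them, and Slc7a5 and Slc3a2 are nearly level.

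Slc43a1 and Slc43a3 are neighbours on mouse chromosome 2 in the RefSeq gene order, with 1 protein-coding gene, Rtn4rl2, between them. The genes around them were looked at after the members' values were known. Rtn4rl2, a receptor of the Nogo receptor family, read 4.65 ± 0.05 in knockout and 4.82 ± 0.35 in wild type arrays (-0.17, SE 0.16, adjusted p = 0.647). On the side of Slc43a1, Timm10 (-0.18) and Smtnl1 (-0.12) did not pass, and beyond them Ube2l6, the conjugating enzyme for the interferon-induced modifier Isg15, rose from 4.79 ± 0.19 to 6.14 ± 0.55 (1.35, SE 0.24, adjusted p = 0.011). On the side of Slc43a3, Prg2 (-0.34), Prg3 (-0.05) and P2rx3 (-0.12) did not pass. The rises in this stretch were therefore separated by genes without a call. Slc7a8 and Slc7a3 rose with no call among their measured neighbours, such as Homez (0.28, adjusted p = 0.312) near Slc7a8 and Foxo4 (0.18, adjusted p = 0.501) near Slc7a3. Homez (3.56 and 3.84 in wild type and knockout) was near the guide and Cebpe (3.42 and 3.41), also near Slc7a8, below it. Other neighbours of Slc7a8, Rnf212b among them, were not measured. Gdpd2 and Tex11 near Slc7a3 were below the guide in both groups.

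**Figure D3:**
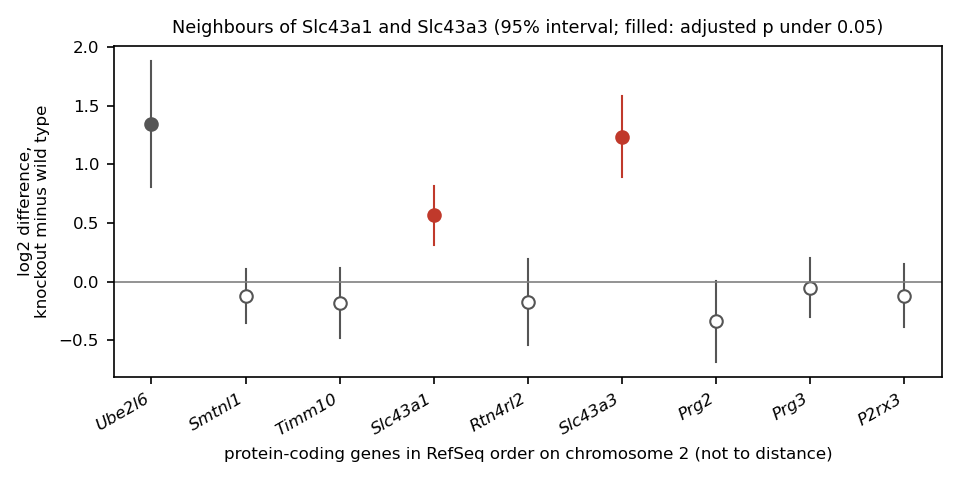
Log2 difference (knockout minus wild type, y axis) of the protein-coding genes around Slc43a1 and Slc43a3 in their RefSeq order (x axis, not to distance), with 95% intervals and filled circles for an adjusted p under 0.05. Slc43a1, Slc43a3 and Ube2l6 are above 0, and the genes between and beside them are below 0 with intervals that reach it or cross it.

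Promoter letters are given for both passing members that RefSeq's promoter table lists, Slc43a1 and Slc7a8, and for Slc7a11, a textbook target of the amino acid response, for comparison. Each run covers 250 bases before to 50 bases after an annotated start in the build GRCm38.p6, written in the direction of the gene. Capitals mark matches, on either strand, to 3 motifs: TGATGNAA, the core of the C/EBP-ATF element bound by Atf4 in amino acid shortage, CACGTG, the E-box bound by Myc, and TGACNNNGC, the core of the antioxidant element. The Slc43a1 window (chr2:84840073-84840372, plus strand) holds CACGTG starting 64 bases before the start and the antioxidant core, on the opposite strand, starting 16 bases before it. The Slc7a8 window (chr14:54781837-54782136, minus strand) holds none of the 3. The Slc7a11 window (chr3:50443564-50443863, minus strand) holds the C/EBP-ATF core on both strands, starting 66 and 47 bases before the start.
Slc43a1: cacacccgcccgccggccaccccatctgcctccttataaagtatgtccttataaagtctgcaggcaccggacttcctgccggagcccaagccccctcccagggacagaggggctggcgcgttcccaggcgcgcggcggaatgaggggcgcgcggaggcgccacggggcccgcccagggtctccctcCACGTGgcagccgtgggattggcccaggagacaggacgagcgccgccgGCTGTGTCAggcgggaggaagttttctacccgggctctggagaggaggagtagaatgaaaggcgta
Slc7a8: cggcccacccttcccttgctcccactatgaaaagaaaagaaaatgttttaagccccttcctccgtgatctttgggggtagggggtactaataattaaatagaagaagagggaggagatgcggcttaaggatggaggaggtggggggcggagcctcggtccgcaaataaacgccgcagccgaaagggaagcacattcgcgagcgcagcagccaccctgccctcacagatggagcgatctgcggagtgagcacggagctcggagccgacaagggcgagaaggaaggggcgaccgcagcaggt
Slc7a11: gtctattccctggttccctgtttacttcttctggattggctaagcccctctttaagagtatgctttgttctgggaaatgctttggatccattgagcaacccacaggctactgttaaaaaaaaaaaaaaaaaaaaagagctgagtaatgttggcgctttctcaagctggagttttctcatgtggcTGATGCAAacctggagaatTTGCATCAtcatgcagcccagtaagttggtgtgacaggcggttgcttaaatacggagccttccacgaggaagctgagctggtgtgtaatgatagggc
Of the 44 members 33 had at least 1 of 44 promoter windows in that table. TGATGNAA was found in 4 of these windows (9.09%), those of Slc1a4, Slc7a7 and Slc7a11, against 3.97% of all 32851 windows. CACGTG was in 7 (15.9%, against 7.15%), among them those of Slc36a1, Slc38a5 and Slc38a7, and TGACNNNGC in 7 (15.9%, against 12.4%), among them those of Slc7a1 and Slc38a2. Several windows of 1 gene overlap, and a match describes letters, not binding. Among the genes with the C/EBP-ATF core none passed: Slc7a7 differed by 0.06, Slc1a4 by 0.11 and Slc7a11 by -0.21. The mean levels of Slc7a11 (2.68) and Slc1a4 (3.74) were below the background guide, and that of Slc7a7 (3.93) was just above it. Genes this dim could show little change, so a response through this motif was not tested by them. Of the 7 member genes with CACGTG and the 6 with TGACNNNGC, only Slc43a1 passed.

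Heteromeric carriers consist of a heavy chain, the Slc3a part, which brings the complex to the membrane, and a light chain from the Slc7a family, which forms the pore. The heavy chain Slc3a2 (CD98), known from activated lymphocytes, read 9.59, 9.65 and 9.65 in wild type and 9.77, 9.67 and 9.69 in knockout arrays. The groups did not overlap, yet the difference was small, 0.08 (SE 0.10, 95% interval -0.13 to 0.30, adjusted p = 0.726). Its relative Slc3a1, the heavy chain of the cystine carrier of kidney and gut, was below the guide in both groups (3.21 ± 0.13 against 3.56 ± 0.15, -0.35, adjusted p = 0.155).

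Among the 10 light chains 1 passed, Slc7a8. This gene encodes LAT2, an exchanger of neutral amino acids, small ones included, that pairs with Slc3a2. Its wild type values were 2.97, 3.41 and 3.67 and its knockout values 4.35, 4.26 and 4.21. The wild type arrays all lay below the background guide of 3.83 and the knockout arrays all above it. Slc7a8 rose 1.89-fold, from 3.35 ± 0.35 to 4.27 ± 0.07 (0.92, SE 0.16, adjusted p = 0.0114), a size that is uncertain because the lower level is at background. The difference was 0.73 without wild type replicate 1, and without knockout replicate 1 the gene did not pass (0.88, adjusted p = 0.0528).

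Slc7a5 (LAT1), the light chain that carries leucine, methionine and tryptophan into stimulated T cells, lay near 0. It read 8.15, 8.38 and 8.17 in wild type and 8.16, 8.29 and 8.22 in knockout arrays, which overlapped throughout. The difference was -0.01 (SE 0.11, adjusted p = 0.983), and its 95% interval of -0.25 to 0.23 leaves out changes as large as those of Slc43a1. Slc7a6 (y+LAT2), which releases arginine in exchange for glutamine and sodium, was 7.61, 7.55 and 7.54 in wild type arrays and 7.22, 7.44 and 7.4 in knockout arrays. All knockout values were lower, but the gene did not pass (log2 difference -0.21, SE 0.10, adjusted p = 0.323). Its close relative Slc7a7 (3.96 ± 0.19 against 3.90 ± 0.10, 0.06, adjusted p = 0.863) and the alanine and serine exchanger Slc7a10 (4.05 ± 0.14 against 4.21 ± 0.26, -0.16, adjusted p = 0.64) stood just above the guide. The other 5 light chains, Slc7a9, Slc7a11, Slc7a12, Slc7a13 and Slc7a15, had means over the 6 arrays between 2.31 and 2.93 and differences between -0.21 and 0.05. They include the cystine and glutamate exchanger Slc7a11, for which both probe sets were below the guide.

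Of the 5 cationic carriers and their relatives, Slc7a3 passed at a level below the guide in both groups. This arginine and lysine carrier, known from brain, read 2.38, 2.49 and 2.34 in wild type and 2.81, 2.87 and 2.99 in knockout arrays. Knockout arrays were higher without overlap, from 2.41 ± 0.08 to 2.89 ± 0.09 (0.48, SE 0.10, adjusted p = 0.0262). At this level a change in transcript cannot be told from a change in background signal. Slc7a3 passed without wild type replicate 2 (adjusted p = 0.0286) and not without wild type replicate 1 or 3 (0.0656 and 0.0923) or knockout replicate 1, 2 or 3 (0.0601, 0.0906 and 0.125), nor after median centring (0.0508).

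Slc7a1 (CAT1), the main arginine carrier of most cell types, read 7.26, 7.13 and 7.39 in wild type and 7.37, 7.64 and 7.55 in knockout arrays. The groups overlapped at 1 array each, and the difference of 0.26 (SE 0.12, 95% interval -0.00 to 0.52) did not pass (adjusted p = 0.283). Slc7a2, Slc7a4 and Slc7a14 were below the guide and differed by 0.12, -0.28 and -0.07, with adjusted p between 0.29 and 0.789.

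The glutamine exchanger Slc1a5 (ASCT2) did not pass. Its brighter probe set read 7.82, 7.79 and 8.08 in wild type and 7.97, 7.82 and 8.02 in knockout arrays, fully overlapping (0.04, SE 0.12, 95% interval -0.22 to 0.30, adjusted p = 0.902). In the dimmer Slc1a5 probe set the means were 4.55 ± 0.19 and 4.86 ± 0.13 for knockout and wild type (-0.32, adjusted p = 0.234 with every probe set tested), so that the mean of both reversed the sign to -0.14; rescaling also turned it, to -0.02 by quantiles and -0.01 by medians. Slc1a4, which exchanges alanine, serine and cysteine, and the 5 glutamate carriers Slc1a1, Slc1a2, Slc1a3, Slc1a6 and Slc1a7, known from nerve and glia, all had means at or below the guide. Their differences lay between -0.28 and 0.11, and the 5 glutamate carriers were all at or below 0 without any passing (smallest adjusted p = 0.292).

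In the largest family, the sodium-coupled neutral carriers and their lysosomal relatives, 0 of 11 members passed (limma; 3 had an unadjusted p under 0.05). Slc38a1 and Slc38a2, which accumulate glutamine and alanine with sodium, were nearly level. Slc38a1 read 9.47, 9.36 and 9.53 in wild type and 9.55, 9.71 and 9.66 in knockout arrays (0.19, SE 0.10, adjusted p = 0.392). Every knockout value was the higher, by less than 2 standard errors. Slc38a2 read 9.97, 9.92 and 10.1 against 10.02, 10.12 and 10.07, which overlapped (0.07, SE 0.10, 95% interval -0.16 to 0.30, adjusted p = 0.778).

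Slc38a9 was the member with the largest difference below 0. It sits in the lysosomal membrane, where it senses arginine and signals to mTORC1. The wild type arrays gave 6.10, 5.37 and 5.95 and the knockout arrays 5.25, 5.32 and 5.01. The groups were apart by a small gap only, because wild type replicate 2 lay close to the knockout arrays. Means were 5.81 ± 0.39 and 5.19 ± 0.16, a difference of -0.61 (SE 0.18, 95% interval -1.03 to -0.20) that did not pass (adjusted p = 0.1). Slc38a9 passed as lower without wild type replicate 2 (-0.83, adjusted p = 0.00827), with another quantile normalization (-0.81, 0.0273) and with array weights (-0.69, 0.0301).

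The remaining members of this family showed smaller differences. Slc38a10 read 6.62, 6.78 and 6.99 in wild type and 7.26, 7.07 and 7.09 in knockout arrays, higher in each (0.35, SE 0.12, adjusted p = 0.165), while its dimmer probe set differed by 0.02. Slc38a6 read 6.03, 5.44 and 5.44 against 5.94, 5.95 and 6.00, with wild type replicate 1 at the level of the knockout arrays. Its difference was 0.33 (adjusted p = 0.323), and without that array it was 0.52 (adjusted p = 0.0309). Slc38a7, which exports glutamine from lysosomes, differed by 0.15 (5.40 ± 0.13 against 5.26 ± 0.10, adjusted p = 0.564; -0.06 after another quantile normalization), and Slc38a8 by -0.07 (adjusted p = 0.852). Slc38a3, Slc38a4, Slc38a5 and Slc38a11 were below the guide, with differences from -0.25 to 0.05.

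Proton-coupled carriers of the Slc36a family export small amino acids from lysosomes or take them up with protons. None of the 4 passed in limma, and 1, Slc36a3, had an unadjusted p under 0.05. Slc36a1 (PAT1) read 5.73, 5.85 and 5.84 in wild type and 6.04, 5.97 and 5.91 in knockout arrays (0.16, SE 0.10, adjusted p = 0.445; -0.01 after another quantile normalization). Slc36a4 (PAT4) read 10.46, 10.57 and 10.23 against 10.26, 10.33 and 10.39 in its brighter probe set (-0.10, SE 0.12, adjusted p = 0.738). The dimmer Slc36a4 probe set went the other way, 5.65 ± 0.05 against 5.17 ± 0.24 (0.47, adjusted p = 0.0835 over all probe sets), and averaging them gave 0.19 (adjusted p = 0.403). Slc36a2 and Slc36a3 were below the guide, at -0.01 and -0.33 (adjusted p = 0.969 and 0.129).

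The opposite-strand gene Slc7a6os lies beside Slc7a6 and read 7.08 ± 0.06 in knockout and 7.34 ± 0.22 in wild type arrays (-0.26, SE 0.13, adjusted p = 0.323). Slc36a1os was below the guide in both groups (0.16, adjusted p = 0.652).

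**Figure D4:**
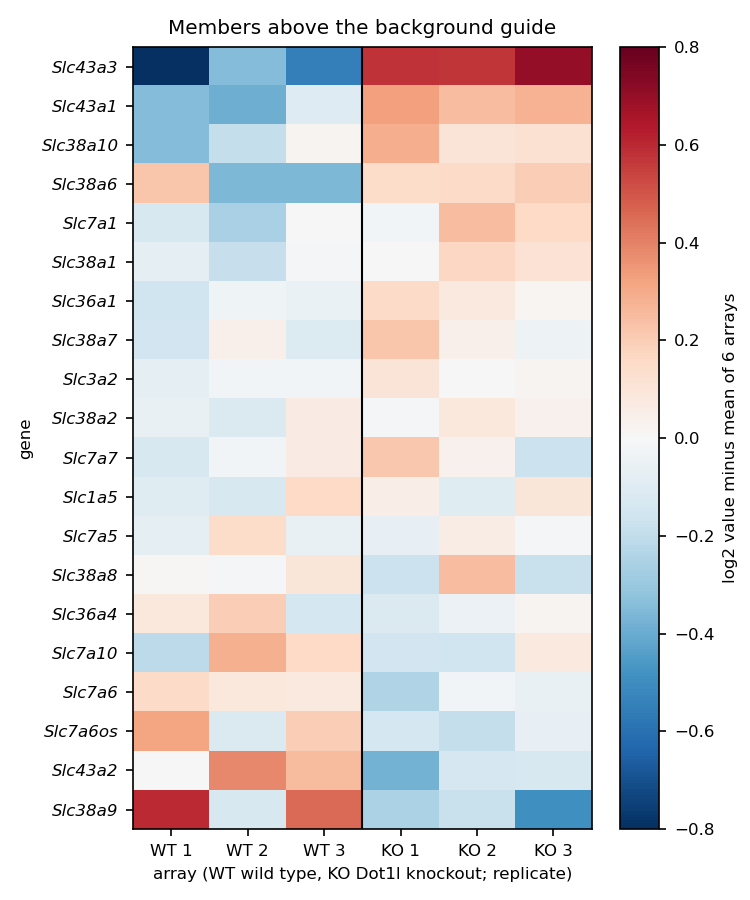
Each row is 1 of the 20 members above the background guide, each column 1 array, and the colour is the log2 value minus the gene's mean over the 6 arrays (red above, blue below). Slc43a3 and Slc43a1 at the top change colour between the groups, Slc43a2 and Slc38a9 at the bottom are mostly red in wild type and blue in knockout arrays, except wild type replicate 1 for Slc43a2 and replicate 2 for Slc38a9, and the rows between them are pale or mixed.

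Genes that sense amino acids or respond to their shortage were counted from 6 lists. Over all genes 5.5% passed, and 9.95% of those above the background guide did. The share passing was 11.5% for the stress response, 6.06% for mTORC1 sensing and 5% for synthetases. It was 7.41% for other carriers, 0% for enzymes and 17.6% for regulators. Each share rests on few genes. In the list of the integrated stress response and Atf4 targets 3 of 26 measured genes rose and 0 fell, with a median difference of 0.080. Eif2ak2 (PKR), a kinase activated by double-stranded RNA and induced by interferon, read 7.42, 6.74 and 6.91 in wild type and 8.01, 8.58 and 8.59 in knockout arrays. It rose from 7.02 ± 0.35 to 8.39 ± 0.33 (1.37, SE 0.20, adjusted p = 0.0046). Ddit3 (CHOP), a factor induced by stress at the endoplasmic reticulum, rose from 6.06 ± 0.16 to 6.87 ± 0.16 (0.81, SE 0.13, adjusted p = 0.0057). Ddit4 (REDD1), an inhibitor of mTORC1, rose from 4.56 ± 0.12 to 5.03 ± 0.07 (0.47, SE 0.11, adjusted p = 0.0323), and passed in only 1 of 6 fits without 1 array, that without wild type replicate 2 (adjusted p 0.0215 to 0.128). The difference of Ddit4 was 0.30 after rescaling by quantiles (adjusted p = 0.214) and 0.42 after median centring (0.0711), neither of which passed. At an unadjusted p under 0.05 in limma 7 genes of this list were higher and 1 lower, beside 11.2% and 6.83% of all genes. The groups did not overlap for 12 of the 26 (46.2%, against 23.5% of all genes), 9 higher and 3 lower. Cebpg (0.60, adjusted p = 0.051), Cebpb (0.50, 0.104) and Trib3 (0.47, 0.14) were higher but did not pass, and Mthfd2 (-0.33, 0.16) was lower. Atf4 itself and the asparagine synthetase gene Asns, both named after their values were seen, differed by 0.24 (adjusted p = 0.329) and 0.09 (adjusted p = 0.848). The list held 5 calls in place of 3 without wild type replicate 2.

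In the list of mTORC1 amino acid sensing 1 of 33 genes rose and 1 fell, with a median of 0.093. Rragd, which encodes a Rag GTPase that holds mTORC1 at the lysosome when amino acids are plentiful, read 5.23, 4.88 and 4.59 in wild type and 6.34, 6.76 and 6.56 in knockout arrays. It rose 3.14-fold with wide separation, from 4.90 ± 0.32 to 6.55 ± 0.21 (1.65, SE 0.17, adjusted p = 0.000585). Wdr59, a subunit of the GATOR2 complex that relieves inhibition of mTORC1, fell from 6.13 ± 0.06 to 5.33 ± 0.14 (-0.80, SE 0.11, adjusted p = 0.00276). Both passed whichever array was left out. Over all 16 refits each passed in 15, with a limma adjusted p of up to 0.106 for Rragd and 0.141 for Wdr59. The list held 4 calls when wild type replicate 2 was omitted, and 4 after rescaling by quantiles.

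Of 20 aminoacyl-tRNA synthetase genes and partners, which load transfer RNAs with the amino acids taken up, 1 rose and 0 fell (median 0.065). At an unadjusted p under 0.05 in limma 2 were higher and 1 was lower. Vars, the valyl enzyme, rose from 6.98 ± 0.14 to 7.57 ± 0.14 (0.59, SE 0.12, adjusted p = 0.0195), while the scaffold gene Eef1e1 differed by -0.33 (adjusted p = 0.134). Vars passed without wild type replicate 2 or knockout replicate 2, but its call ended without wild type replicate 1 or 3 (adjusted p = 0.0583 and 0.0753) or knockout replicate 1 or 3 (0.0858 and 0.0857).

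Amino acid carriers of other families had 1 rise and 1 fall among 27 (median -0.040). Slc66a1, which exports cationic amino acids from lysosomes, rose from 4.46 ± 0.09 to 4.94 ± 0.03 (0.48, SE 0.10, adjusted p = 0.0226), with values of 4.56, 4.38 and 4.44 against 4.96, 4.95 and 4.91. Slc6a19, a neutral amino acid carrier of gut and kidney, fell from 5.54 ± 0.08 to 4.73 ± 0.34 (-0.82, SE 0.16, adjusted p = 0.019). Each passed in 2 of the 6 fits without 1 array, with adjusted p up to 0.0912 for Slc66a1 and 0.0812 for Slc6a19. After rescaling by quantiles Slc66a1 differed by 0.32 (adjusted p = 0.107). The call of Slc66a1 ended when wild type replicate 3 or any knockout array was omitted, and that of Slc6a19 when replicate 1 or 3 of either group was. The list held 0 calls without wild type replicate 3, knockout replicate 1 or knockout replicate 3, and 1 without knockout replicate 2.

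Enzymes of glutamine, branched-chain and sulfur amino acids gave no call, with 0 of 23 passing and 0 at an unadjusted p under 0.05 in limma (median -0.030). The smallest p in this list belonged to Cbs (-0.22, adjusted p = 0.451) and Bcat2 (-0.20, adjusted p = 0.452), the entry enzymes of cystathionine synthesis and branched-chain breakdown.

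Among 17 regulators and surface partners of the carriers 2 rose and 1 fell (median 0.18). At an unadjusted p under 0.05 in limma 6 were higher and 3 lower, beside 11.2% and 6.83% of all genes. The groups did not overlap for 12 of the 17 (70.6%), 9 higher and 3 lower. That compares with 23.5% of all genes and 33.7% of those above the guide. Txnip, an arrestin that curbs glucose uptake, fell from 11.32 ± 0.03 to 10.51 ± 0.07 (-0.81, SE 0.10, adjusted p = 0.00141). Cd44, the hyaluronan receptor of memory T cells that also stabilises the Slc7a11 protein, rose from 6.18 ± 0.05 to 6.95 ± 0.12 (0.77, SE 0.10, adjusted p = 0.00266). Cltc, the clathrin heavy chain, rose by 0.46 (SE 0.11, adjusted p = 0.0336) and passed only without wild type replicate 3 among the fits that left out 1 array (adjusted p 0.0402 to 0.127), and it did not pass after median centring (0.41, adjusted p = 0.0518). Arrdc3 (0.49, adjusted p = 0.0554), Nedd4 (0.36, 0.0605) and Keap1 (0.38, 0.0675) were nearest to passing. Nedd4l (-0.35, 0.147) and Hif1a (-0.27, 0.204) lay below 0 and did not pass. Myc, a driver of carrier genes in stimulated T cells, was named after its value was seen and differed by -0.01 (95% interval -0.24 to 0.23, adjusted p = 0.988).

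**Figure D5:**
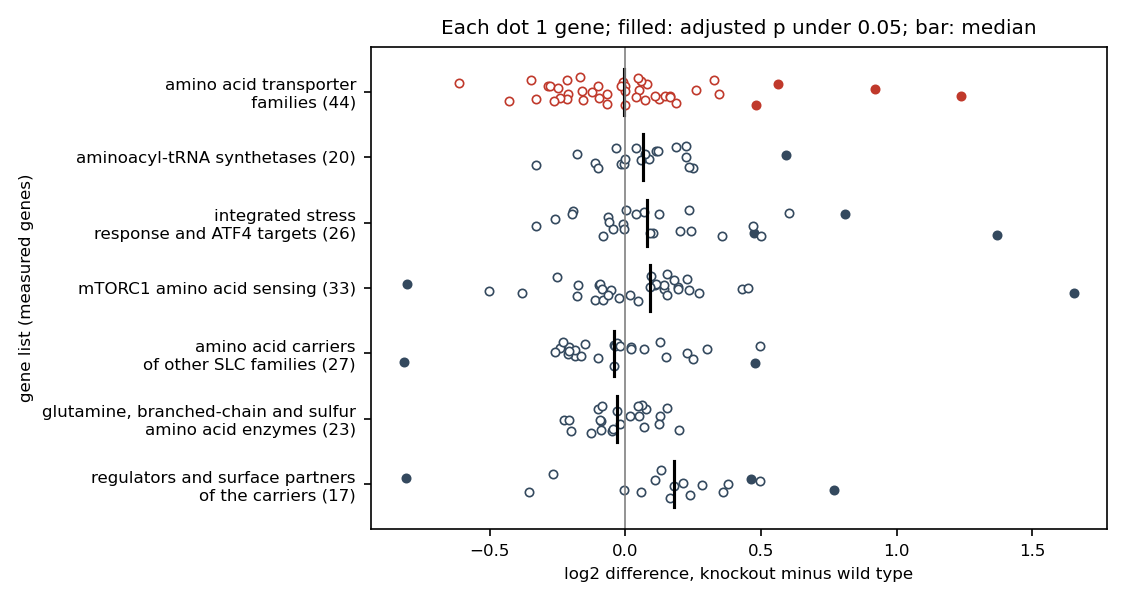
Log2 difference (knockout minus wild type, x axis) of each measured gene in the transporter families (red) and in 6 lists of related genes (blue), with filled dots for an adjusted p under 0.05 and a black bar for each list's median. The medians lie between -0.040 and 0.18, and single genes such as Rragd, Eif2ak2 and Slc43a3 stand far from them.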

How the data were processed

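RNA was measured on Affymetrix whole-transcript arrays, 3 per group. Per the submitters' processing notes, the authors used RMA and R 3.1.1 to make the deposited log2 values. RMA removes background, equalises array distributions and summarises probes, and it compresses differences of dim probe sets. RMA settings and the build were not given in the sources used here. Deposited values ran from 1.03 to 12.9. Arrays have no count depth; precision is limited by their number.

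Of 41345 probe sets, 23521 named exactly 1 gene, 1814 several and 16010 none in the platform annotation. Each gene kept its probe set of highest mean level, giving 22180 genes. All 44 member symbols matched RefSeq (GRCm38.p6). Groups and replicate numbers came from the titles. No 2 arrays were identical. Knockout was compared with wild type by limma 3.58.1 in R 4.3.3 (lmFit, eBayes), with Benjamini-Hochberg adjustment over 22180 genes, after a check on simulated data. Alternatives were a replicate block, leaving out each array, rescaling by quantiles or medians, level filters, array weights, trend with robust fitting, averaged or all probe sets, other thresholds and, added later, a covariate.

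Members, lists and alternatives were chosen with earlier results of these data known. Named members are those that passed, those with an adjusted p under 0.2 or a difference of at least 0.5, and those above the background guide; other members are given by range. Of each list the genes that passed are named, or the 2 with the smallest p, and further genes of some lists were named after their values were seen. Stress, sensing, synthetase, carrier, enzyme, regulator and cell marker lists were counted; list genes without a probe set of their own were not measured. Protein sequences were not used here.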

Additional observations from a re-analysis of the deposited data

Results flagged for a closer look

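Probe sets that name no gene were not tested themselves. They entered the transporter fits only through the rescaling of whole arrays and through the covariate. Their median difference, knockout minus wild type, was 0.05 on the log2 scale, and the median of these probe sets lay between 3.34 and 3.49 in wild type arrays and between 3.55 and 3.63 in knockout arrays, so this signal outside the gene measurements was higher in all 3 knockout arrays. What these probe sets measure is not given in the files used here, and the cause was not tested.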

How the results depend on the processing

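Same-numbered arrays of the groups did not deviate together (r = -0.07, -0.16 and -0.07 over genes). With so few arrays this cannot show whether the numbers pair them. With the replicate block 912 genes passed in place of 1220, and Slc7a3 did not pass (adjusted p = 0.0772). The lists of synthetases and of other carriers then held 0 and 1 calls. Over the 24 named members, 337 of the values under other settings kept the direction and side of the threshold. A further 22 changed direction, 4 gained a call and 16 lost one. The lost calls were those of Slc7a3 (8), Slc43a1 (6) and Slc7a8 (2). Slc43a3 passed in all 16 refits. Leaving out 1 array gave 1 to 5 members called, 1 to 4 higher and 0 to 1 lower, 0 to 1 synthetases, 2 to 5 stress response, 2 to 4 mTORC1, 0 to 3 other carrier and 2 to 3 regulator genes. A filter at the background guide left 2 members called, both higher, with 4 mTORC1 and 6 regulator genes; the 25th percentile filter gave 5 regulators. Another quantile normalization gave 1 member lower, 4 mTORC1 genes and 1 other carrier; array weights gave 1 member lower and 5 regulators; trend with robust fitting gave 2 synthetases and 5 regulators. At an adjusted p under 0.1, 4 mTORC1 and 6 regulator genes passed, and under 0.01, 1 member (higher), 0 synthetases and 0 other carriers. With each array's median of unnamed probe sets as covariate (an alternative chosen after seeing the data) 1 member passed (Slc43a3, 1.68, adjusted p = 0.029, higher), 216 genes passed in all, and the lists held 1 mTORC1 gene and 0 of the synthetases, stress response genes, other carriers and regulators; Slc7a8 (1.19) and Slc43a1 (0.50) did not pass (adjusted p = 0.131 and 0.309). That covariate was higher in all 3 knockout arrays than in any wild type array, so it overlaps with the group contrast.

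Signs turned for genes that did not pass. Quantile normalization turned Slc1a5 (-0.02), Slc36a1 (-0.01), Slc38a7 (-0.06) and Slc7a7 (-0.01), median centring Slc1a5 (-0.01), array weights Slc1a5 (-0.01) and Slc7a5 (0.02), and the mean of probe sets Slc1a5 (-0.14) and Slc36a4 (0.19). The covariate turned Slc36a4 (0.03), Slc38a1 (-0.01), Slc38a2 (-0.06), Slc38a6 (-0.06), Slc7a1 (-0.03), Slc7a10 (0.18), Slc7a5 (0.13), Cbs (0.08) and Bcat2 (0.06). Leaving out 1 array spanned -0.01 to 0.13 for Slc1a5, -0.05 to 0.06 for Slc7a5, -0.21 to 0.01 for Slc38a8 and -0.04 to 0.16 for Slc7a7. The cause was not tested. Levels near background limit what can be said of 24 members.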
